A study of Homo sapiens with 20 samples.

Results

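The response of immortalized human pericytes to the growth factor PDGF-BB alone was examined by RNA sequencing. The 5 libraries of cells given recombinant human PDGF-BB at 20 ng/mL for 4 h were set against the 5 libraries of untreated control cells, which makes 10 of the 20 libraries in the series. The other 10 libraries, 5 from cells given eNAMPT (the secreted form of the enzyme NAMPT, 500 ng/mL) together with PDGF-BB and 5 from cells given eNAMPT alone, served to look at the same factor in separate samples. They also entered the shared estimate of the spread. All libraries came from 1 wild-type line, kept in culture medium with fetal bovine serum, so the replicates numbered 1 to 5 stand for that line and not for several donors. The labels call them biological replicates without saying that they were separate cultures, and p-values therefore measure the spread between these samples. Of 58676 genes in the count table, 12111 had enough counts to be tested.

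PDGF-BB is a dimer of PDGF B chains that binds the receptor tyrosine kinases PDGFRB and PDGFRA. Ligand binding activates the Ras to ERK cascade, PI3K with AKT, and phospholipase C, and these pathways reach transcription within minutes. Immediate early genes such as EGR1 and FOS are induced first and often transiently, and delayed genes that encode ERK phosphatases, growth factors and matrix regulators follow. In small vessels PDGF-BB made by the endothelium recruits pericytes, which carry PDGFRB, and keeps them on the vessel wall.

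The growth factor raised more genes than it lowered, and most changes were modest. At an adjusted p under 0.05 (edgeR quasi-likelihood test with replicate number as a block, Benjamini-Hochberg adjustment over all tested genes), 299 genes rose and 78 fell, which is 2.47% and 0.644% of the tested genes, or 3.11% together. The 299 had a median log2 fold change of 0.43, a range of 0.14 to 1.99, and 34 of them changed by at least 1 on the log2 scale. The 78 had a median of -0.48 and a range of -2.35 to -0.16, and 10 reached a change of 1. In CPM, counts scaled to a library of 1000000, the genes that rose summed to 64924 in PDGF-BB cells and 50348 in control cells, and those that fell to 10639.6 in PDGF-BB cells and 12691 in control cells. In 264 of the 299 the PDGF-BB library was higher in all 5 pairs of equal replicate number (6.89% of all genes were), and in 113 the groups did not overlap (1.52% of all genes). Among the 78, 67 were lower in all 5 pairs (5.21% of all genes) and in 32 the groups did not overlap (0.768%). Both sets were chosen by a test on these same values, so these shares describe the sets and are no separate support. The last gene inside the threshold was GPR176 (log2 fold change 0.33, adjusted p 0.0496), and the first outside was CTGF, a matricellular protein gene (0.18, 0.0501).

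These counts depend on the model. Without the replicate block 127 genes rose and 20 fell, all of them among the 299 and 78, and scaling by ERCC spike-in counts left 64 higher and 6 lower, so that 91.4% of calls were rises in place of 79.3%. Without PDGF-BB replicate 4 the genes that fell numbered 47, and without control replicate 5 they numbered 51. In all 10 fits that left out 1 library, 153 of the 299 and 17 of the 78 passed.

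**Figure D1:**
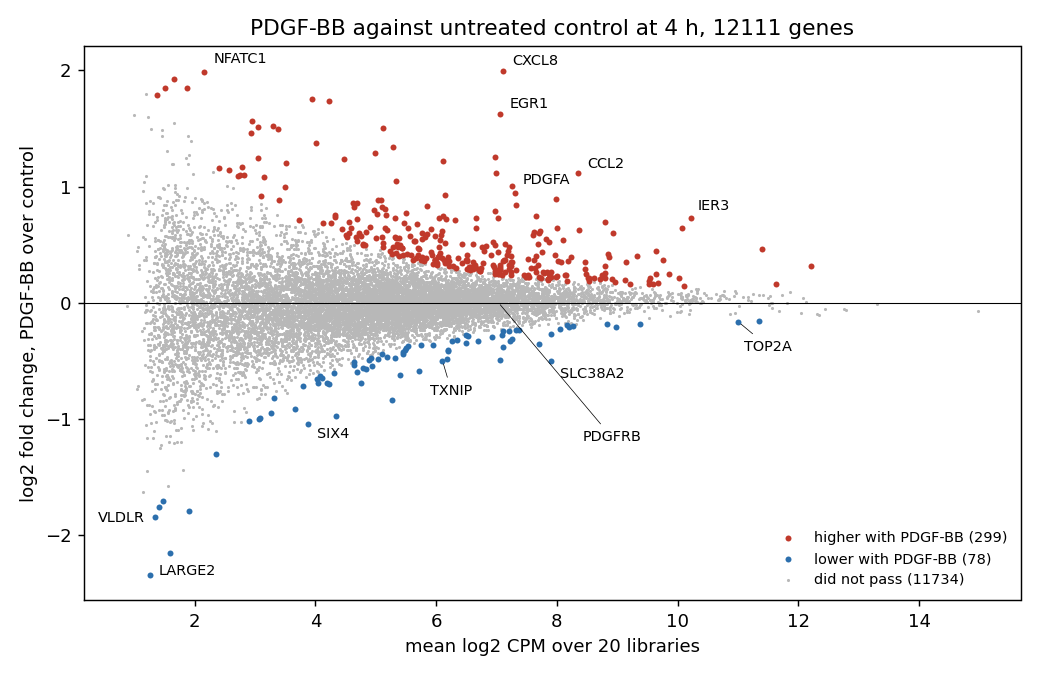
Each point is a gene, by its mean log2 CPM over 20 libraries and its log2 fold change, PDGF-BB over control. The 299 genes that rose are red, the 78 that fell are blue and genes that did not pass are grey, and the largest changes on both sides include genes of low expression.

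Gene counts ran from 3260782 to 3759592 in PDGF-BB libraries and from 2963873 to 3726752 in control libraries. Log2 CPM correlated between any pair of the 10 libraries at 0.959 to 0.974. Over 7 measures of the libraries (exact permutation test, two-sided, 5 against 5 libraries) the smallest adjusted p was 0.167, for the difference between long and short genes described with the falls. The smallest p this exact test can give is 0.00794 before adjustment, and it did not use the replicate block. It therefore cannot show that the libraries were alike.

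The receptors were transcribed in both groups and their levels did not change by the test. PDGFRB had 136, 113, 129, 152 and 140.2 CPM in PDGF-BB replicates 1 to 5, against 135, 137, 117, 148 and 131 CPM in control replicates 1 to 5. The groups overlapped, and the difference was 0.01 on the log2 scale (SE 0.07, adjusted p 0.986, edgeR). PDGFRA averaged 102 ± 19.1 CPM in PDGF-BB cells and 97.8 ± 12.5 CPM in control cells (SD, n = 5 each), a log2 difference of 0.06 (SE 0.08, adjusted p 0.852, edgeR). Of the 11 PDGF ligand and receptor genes, 8 were tested, and PDGFA, which encodes the A chain, was the 1 that rose. PDGFB, the gene of the chain that was added as protein, held 10 counts over the 5 PDGF-BB libraries and 13 over the 5 control libraries, too few to test.

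PDGFA had 254, 197, 210.3, 238 and 224 CPM in PDGF-BB replicates 1 to 5 and 111, 109, 124, 107 and 135 CPM in control replicates 1 to 5. Every PDGF-BB library lay above every control library, and PDGFA rose by 0.94 on the log2 scale (SE 0.07, adjusted p 1.15e-23, edgeR). The gene lies on chromosome 7, 497258 to 520296, of GRCh38.

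Immediate early transcription factors were among the clearest rises. Of 31 listed, 26 were tested and 11 rose (42.3%, beside 2.47% of all genes), 0 fell, and the median log2 fold change of the tested members was 0.33, beside -0.01 over all genes. EGR1, a zinc finger activator (chromosome 5, 138465490 to 138469315), had 204, 189.5, 218, 252 and 172 CPM in PDGF-BB replicates 1 to 5 and 56.9, 70.7, 69.6, 67.0 and 70.6 CPM in control replicates 1 to 5. Every PDGF-BB library lay far above every control library, and the log2 change was 1.63 (SE 0.08, adjusted p 1.06e-39). Within the AP-1 family, whose members pair as Fos and Jun proteins, FOSB rose by 1.46 (SE 0.29, adjusted p 0.000225), JUNB by 0.56 (0.000251), FOSL1 by 0.35 (0.0187) and JUN by 0.32 (7.61e-06). FOS itself was low at 5.54 ± 1.21 CPM in PDGF-BB cells and 2.41 ± 2.04 CPM in control cells, and its log2 fold change of 1.24 did not pass (adjusted p 0.127). MAFF, a small Maf protein, rose by 0.75, BHLHE40, a helix-loop-helix repressor, by 0.76, CEBPB by 0.36, ETS2 by 0.37 and KLF6 by 0.24. MYC, the growth regulator, averaged 37.4 ± 6.15 CPM in PDGF-BB cells and 25.5 ± 3.44 CPM in control cells and rose by 0.55 (SE 0.14, adjusted p 0.00746), a call that ended without PDGF-BB replicate 4 (0.42, adjusted p 0.151), control replicate 4 (0.50, 0.056) or control replicate 5 (0.49, 0.0501). Of the 11 calls, 7 held in all 10 fits that left out 1 library, and 7 held without the block. Leaving the cell type marker lists aside, in this and the other 15 lists that had rises and 0 falls in edgeR, 8 of 394 tested genes lay below 0 at an unadjusted p under 0.05, and DESeq2 and limma-voom called 1 and 0 of the 394 lower.

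The promoters of EGR1 and PDGFA are shown because both genes rose and both hold a CArG box, the element bound by serum response factor (SRF). The sequences are the 250 bases before a start of transcription in RefSeq (GRCh38.p14), on the strand of the gene, with the box in capitals. EGR1 is chr5:138465229-138465478 on the plus strand and PDGFA is chr7:520227-520476 on the minus strand. RefSeq gave 4 start windows for PDGFA; the one shown was chosen for its box, and the other 3 held none.
EGR1: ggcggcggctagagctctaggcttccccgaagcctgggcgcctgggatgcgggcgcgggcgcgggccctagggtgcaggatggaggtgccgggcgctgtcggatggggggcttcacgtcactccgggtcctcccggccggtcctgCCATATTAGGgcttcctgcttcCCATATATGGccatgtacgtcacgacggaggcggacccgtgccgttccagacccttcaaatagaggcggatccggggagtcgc
PDGFA: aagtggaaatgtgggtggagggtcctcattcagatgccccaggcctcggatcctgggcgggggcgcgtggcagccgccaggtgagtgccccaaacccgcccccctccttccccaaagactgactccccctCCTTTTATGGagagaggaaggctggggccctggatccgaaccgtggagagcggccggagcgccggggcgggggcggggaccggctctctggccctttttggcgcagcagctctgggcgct
The EGR1 matches lie at -105 to -96 and -83 to -74 from the start, and the PDGFA match at -120 to -111. The box, searched on both strands, was present in 1.29% of 35116 promoter windows of 300 bases that run from 250 before to 50 after a start. Promoters could be matched for 74.25% of the genes that rose and 75.93% of all tested genes. Both shares are below the minimum set for a comparison of motifs over a whole set, so that comparison is void.

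Other immediate early genes moved the same way: of 27 listed, 25 were tested, 10 rose and 0 fell, with a median log2 fold change of 0.35. IER3, a survival-associated gene, had 1225, 1114, 1226, 1258 and 1363 CPM in PDGF-BB replicates 1 to 5, against 713, 667, 769, 687 and 914 CPM in control replicates 1 to 5. The groups were apart, and IER3 rose by 0.73 (SE 0.04, adjusted p 2.68e-30). RRAD, a Ras-related GTPase, rose by 1.74 (SE 0.19, adjusted p 2.22e-13), with 22.0 to 35.6 CPM in PDGF-BB libraries and 3.41 to 14.4 CPM in control libraries. PTGS2, which encodes cyclooxygenase 2, rose by 1.53 (SE 0.27, adjusted p 1.17e-05), but control replicate 1 at 13.2 CPM exceeded PDGF-BB replicates 4 and 5 at 11.8 and 12.4 CPM. IER2 rose by 0.58, CSRNP1 by 0.55, the DNA damage response gene GADD45A by 0.43, IER5 by 0.36, CYR61 by 0.36, the mRNA decay factor ZFP36L1 by 0.35 and the apoptosis inhibitor MCL1 by 0.20. The CYR61 call ended without the block (adjusted p 0.363), as did those of IER5 (0.0566) and MCL1 (0.248).

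Feedback inhibitors of ERK signalling rose as well. Of 26 listed, 23 were tested, 6 rose and 0 fell, with a median of 0.21. DUSP6, a phosphatase that acts on ERK, had 107, 91.6, 116, 123 and 108 CPM in PDGF-BB replicates 1 to 5 and 53.5, 41.98, 72.2, 30.2 and 39.9 CPM in control replicates 1 to 5. The groups did not overlap, and the log2 change was 1.22 (SE 0.11, adjusted p 3.09e-18). The nuclear ERK phosphatase DUSP5 rose by 1.05 (SE 0.13, adjusted p 1.1e-10), the EGF receptor inhibitor ERRFI1 by 0.83 (8.01e-10), the Sprouty inhibitor SPRY4 by 0.82 (7.96e-05), DUSP1 by 0.64 (0.000518) and the adaptor SH2B3 by 0.29 (0.0414). The SH2B3 call was lost in 7 of the 10 fits that left out 1 library and without the block (adjusted p 0.336), and the other 5 held in all of these fits. DUSP4 (log2 fold change 0.19, adjusted p 0.63), SPRY2 (0.24, 0.73) and SPRED1 (0.21, 0.24) did not pass. Of 24 tested ERK output genes 9 rose and 0 fell, with a median of 0.24, among them the imprinted gene PHLDA2 at 745 ± 70.1 CPM in PDGF-BB cells and 562 ± 44.2 CPM in control cells (log2 fold change 0.40, adjusted p 3.26e-11). Of these 9 calls, 7 held in all 10 fits that left out 1 library and 5 held without the block.

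Secreted growth factors formed a further group of rises: of 41 other growth factor and receptor genes, 27 were tested, 7 rose and 0 fell, with a median of 0.14. HBEGF, a ligand of the EGF receptor, had 186, 187, 182, 245 and 254 CPM in PDGF-BB replicates 1 to 5 and 97.9, 96.6, 108, 91.9 and 130.3 CPM in control replicates 1 to 5. It rose by 1.01 (SE 0.07, adjusted p 7.86e-24), and the groups were apart. ANGPTL4, an inhibitor of lipoprotein lipase, rose by 1.34 (SE 0.13, adjusted p 1.11e-16), with 54.6 to 72.6 CPM in PDGF-BB libraries and 17.1 to 32.9 CPM in control libraries. LIF, a cytokine that signals through gp130, rose by 1.29 (SE 0.15, adjusted p 1.77e-12), with 39.6 to 45.9 CPM in PDGF-BB libraries and 10.7 to 28.2 CPM in control libraries. EREG, a further EGF receptor ligand, rose by 0.60, VEGFA by 0.57, the ERBB ligand NRG1 by 0.39 and FGF2 by 0.37. Without the block EREG (adjusted p 0.168), VEGFA (0.223), NRG1 (0.185) and FGF2 (0.102) did not pass.

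Chemokine and cytokine transcripts showed the largest shift of any list. Of 27 listed, 15 were tested, 7 rose and 0 fell, and the median log2 fold change was 0.84. CXCL8, the neutrophil attractant interleukin 8 (chromosome 4, 73740506 to 73743716), had 142, 148, 169, 162 and 222 CPM in PDGF-BB replicates 1 to 5 and 44.98, 41.98, 47.6, 24.8 and 53.2 CPM in control replicates 1 to 5. The groups were far apart, and the log2 change was 1.99 (SE 0.09, adjusted p 4.17e-43), the smallest p of all genes. CCL2, which attracts monocytes, averaged 357 ± 61.3 CPM in PDGF-BB cells and 166 ± 34.5 CPM in control cells and rose by 1.11 (SE 0.06, adjusted p 1.32e-35). CXCL3 rose by 1.50 (adjusted p 3.7e-05), IL1B by 1.00 (0.0102), the gp130 cytokine IL11 by 0.84 (3.03e-17) and CXCL1 by 0.77 (0.000432). IL6 averaged 3.27 ± 0.816 CPM in PDGF-BB cells and 1.30 ± 0.663 CPM in control cells, and its log2 fold change of 1.27 did not pass (adjusted p 0.168). The IL1B call ended without the block (adjusted p 0.0687) and in 3 of the 10 fits that left out 1 library.

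Of 28 NF-kB pathway and target genes, all tested, 10 rose and 0 fell, with a median of 0.33. ICAM1, a leukocyte adhesion molecule, had 19.2, 22.1, 18.1, 23.9 and 33.2 CPM in PDGF-BB replicates 1 to 5 and 4.28, 6.46, 3.94, 9.08 and 10.2 CPM in control replicates 1 to 5. It rose by 1.75 (SE 0.22, adjusted p 1.03e-10) with no overlap, and VCAM1, the adhesion molecule for integrin VLA4, rose by 1.50 (SE 0.15, adjusted p 4.25e-15). PTX3, a soluble pattern receptor, rose by 1.25 (SE 0.08, adjusted p 5.48e-28), with 122 to 204 CPM in PDGF-BB libraries and 45.4 to 89.7 CPM in control libraries. The surface protein gene CD83 rose by 1.52, the adaptor gene TRAF1 by 1.38, the ubiquitin editor TNFAIP3 by 1.23, TNFAIP2 by 0.93, the subunit genes RELB by 0.81 and NFKB1 by 0.71, and the apoptosis inhibitor BIRC3 by 0.70. NFKBIA, which encodes the inhibitor IkB-alpha, did not follow them: it had 125 to 153 CPM in PDGF-BB libraries and 114 to 140.1 CPM in control libraries (log2 fold change 0.05, SE 0.07, adjusted p 0.839). RELA (log2 fold change 0.00) and NFKBIZ (-0.11) did not pass either. The BIRC3 call ended without the block (adjusted p 0.0758) and in 2 of the 10 fits that left out 1 library, and the other 9 calls held in all 10 fits that left out 1 library.

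The promoters of CXCL8 and CD83 are shown as chosen examples that may not stand for these lists, again as the 250 bases before a RefSeq start. Capitals mark an AP-1 site (TGANTCA) in CXCL8, chr4:73740319-73740568, and an NF-kB site in CD83, chr6:14117522-14117771, both on the plus strand. CD83 had 2 RefSeq start windows, of which the one shown was chosen for its NF-kB site and the other held none.
CXCL8: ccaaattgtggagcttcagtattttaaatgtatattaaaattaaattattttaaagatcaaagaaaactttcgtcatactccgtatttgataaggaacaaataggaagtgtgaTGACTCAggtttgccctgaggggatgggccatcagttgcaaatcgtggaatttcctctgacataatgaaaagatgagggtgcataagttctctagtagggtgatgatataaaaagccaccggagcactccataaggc
CD83: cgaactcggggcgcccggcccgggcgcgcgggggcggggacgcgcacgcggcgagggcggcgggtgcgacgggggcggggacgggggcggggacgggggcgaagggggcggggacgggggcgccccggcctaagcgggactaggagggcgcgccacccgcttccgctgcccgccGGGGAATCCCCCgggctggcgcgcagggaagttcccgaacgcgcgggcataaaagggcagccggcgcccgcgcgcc
The AP-1 letters lie at -137 to -131. The NF-kB pattern matched CD83 at 3 overlapping positions between -76 and -65. It had 0 matches in the CXCL8 bases shown, but the pattern is fixed, and a site that departs from it would be missed. Searched on both strands, the AP-1 letters were found in 7.71% and the NF-kB pattern in 5.91% of the 35116 promoter windows. In the 250 bases before a start, the NF-kB pattern also matched VCAM1 and PTX3, and it had 0 matches in ICAM1 and TNFAIP2.

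**Figure D2:**
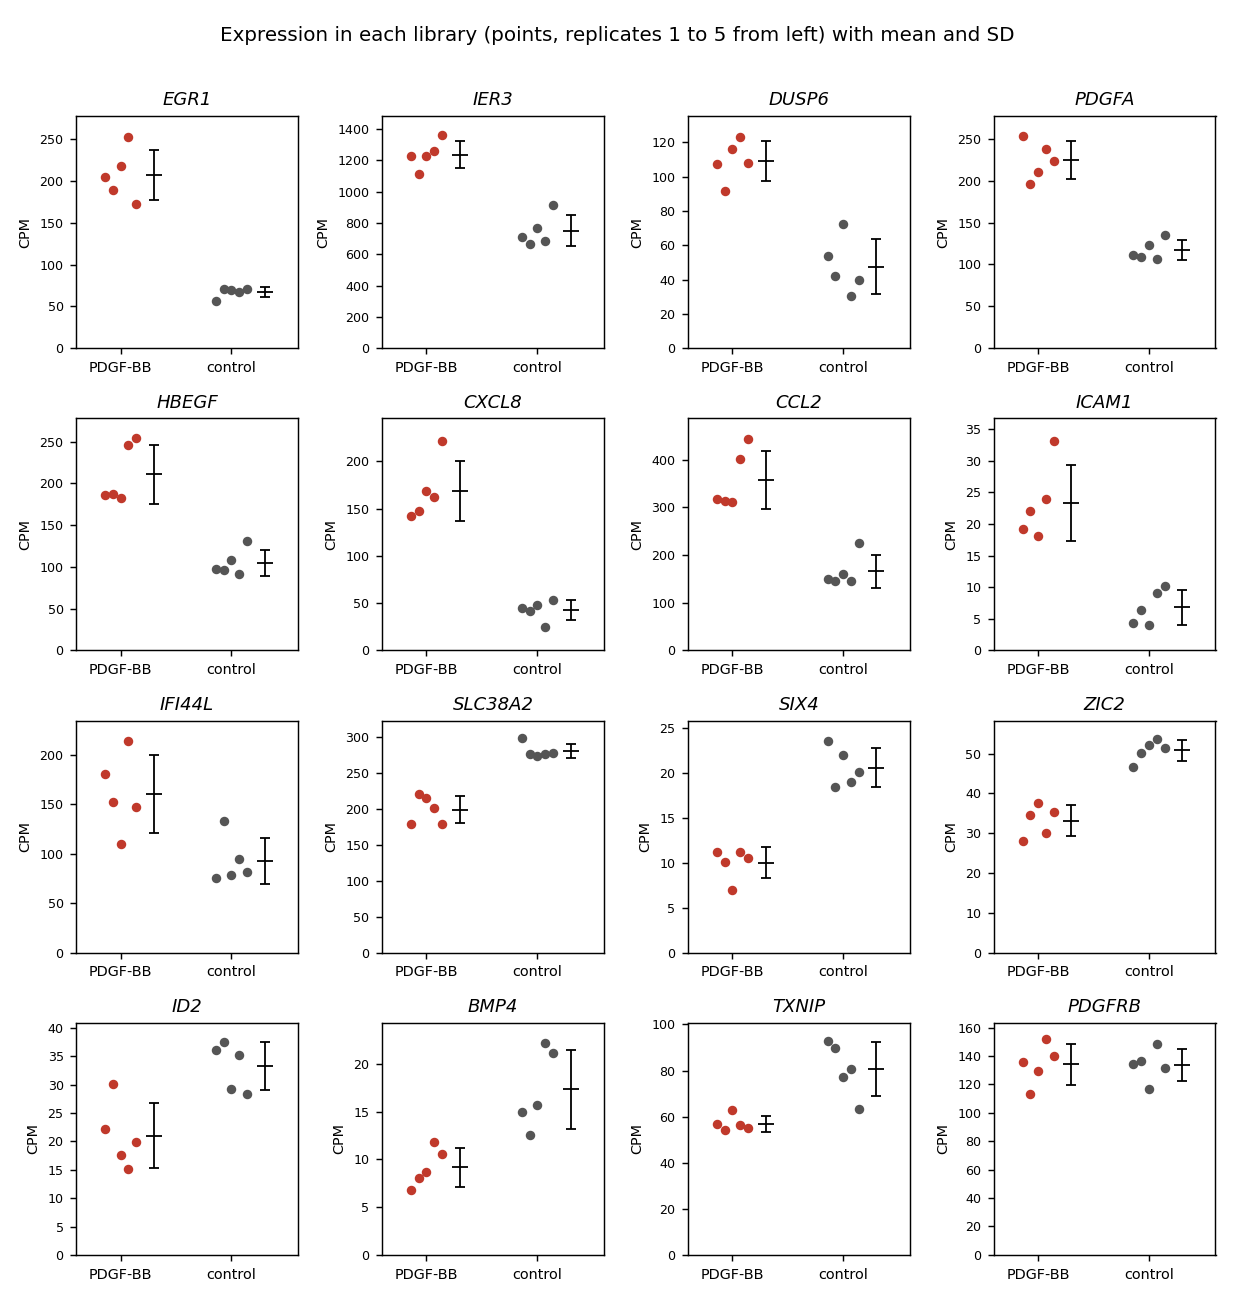
CPM of 16 genes in each library, with PDGF-BB libraries left and control libraries right, and the mean with its SD beside the points. The groups are apart for EGR1, CXCL8, PDGFA, SIX4 and SLC38A2 and overlap in IFI44L, ID2 and PDGFRB.

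Interferon-stimulated genes, which encode antiviral proteins, rose in larger number than any other list. Of 44 listed and tested, 23 rose (52.3%) and 0 fell, 42 had a log2 fold change above 0 (5911 of all 12111 did), and the median was 0.35. IFI44L had 180.4, 152, 109.6, 214 and 147 CPM in PDGF-BB replicates 1 to 5, against 75.9, 133, 78.5, 94.8 and 81.5 CPM in control replicates 1 to 5. PDGF-BB replicate 3 lay below control replicate 2, and the log2 change was 0.79 (SE 0.08, adjusted p 4.34e-14). MX1, a GTPase that blocks viral replication, averaged 249 ± 42.7 CPM in PDGF-BB cells and 150.4 ± 46.1 CPM in control cells, also with overlap, and rose by 0.75 (SE 0.07, adjusted p 3.03e-17). Control replicate 2 was the highest control library for IFI44L, MX1 and XAF1. GBP1, a guanylate-binding protein, rose by 0.54 (SE 0.06, adjusted p 8.51e-13) without overlap, at 303 to 360.5 CPM in PDGF-BB libraries and 203 to 255 CPM in control libraries. OAS1 and OAS2, which make the activator of RNase L, rose by 0.82 and 0.62, the antiviral enzyme RSAD2 by 0.73, MX2 by 0.77, and the RNA sensors IFIH1 and DDX58 by 0.62 and 0.50. The members without a call included IRF7 (log2 fold change 0.22), IRF9 (0.87, adjusted p 0.314) and GBP2 (-0.03). Summed over the list and scaled by total gene counts only, levels were 5476 to 7187 CPM in PDGF-BB libraries and 4471 to 6201 CPM in control libraries. Of the 23 calls, 16 held in all 10 fits that left out 1 library, and 12 held without the block, where ISG15 (adjusted p 0.267) and IFIT1 (0.109) did not pass.

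IFI44L is shown for this list, chr1:78620198-78620447 on the plus strand, again the 250 bases before its RefSeq start. Capitals mark the interferon-stimulated response element, here the letters GAAA, any 2 bases, and GAAA again.
IFI44L: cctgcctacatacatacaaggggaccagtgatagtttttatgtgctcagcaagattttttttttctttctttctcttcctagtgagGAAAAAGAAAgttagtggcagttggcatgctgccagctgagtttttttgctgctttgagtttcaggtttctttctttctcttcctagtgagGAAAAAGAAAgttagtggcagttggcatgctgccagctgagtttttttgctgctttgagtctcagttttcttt
The letters occur at -164 to -155 and at -73 to -64. Among the 35116 windows 3.57% hold them on either strand. IFI44L is a chosen example and may not stand for the list. A match was also found before a start of MX1 and of GBP1, while XAF1 had 0 matches.

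**Figure D3:**
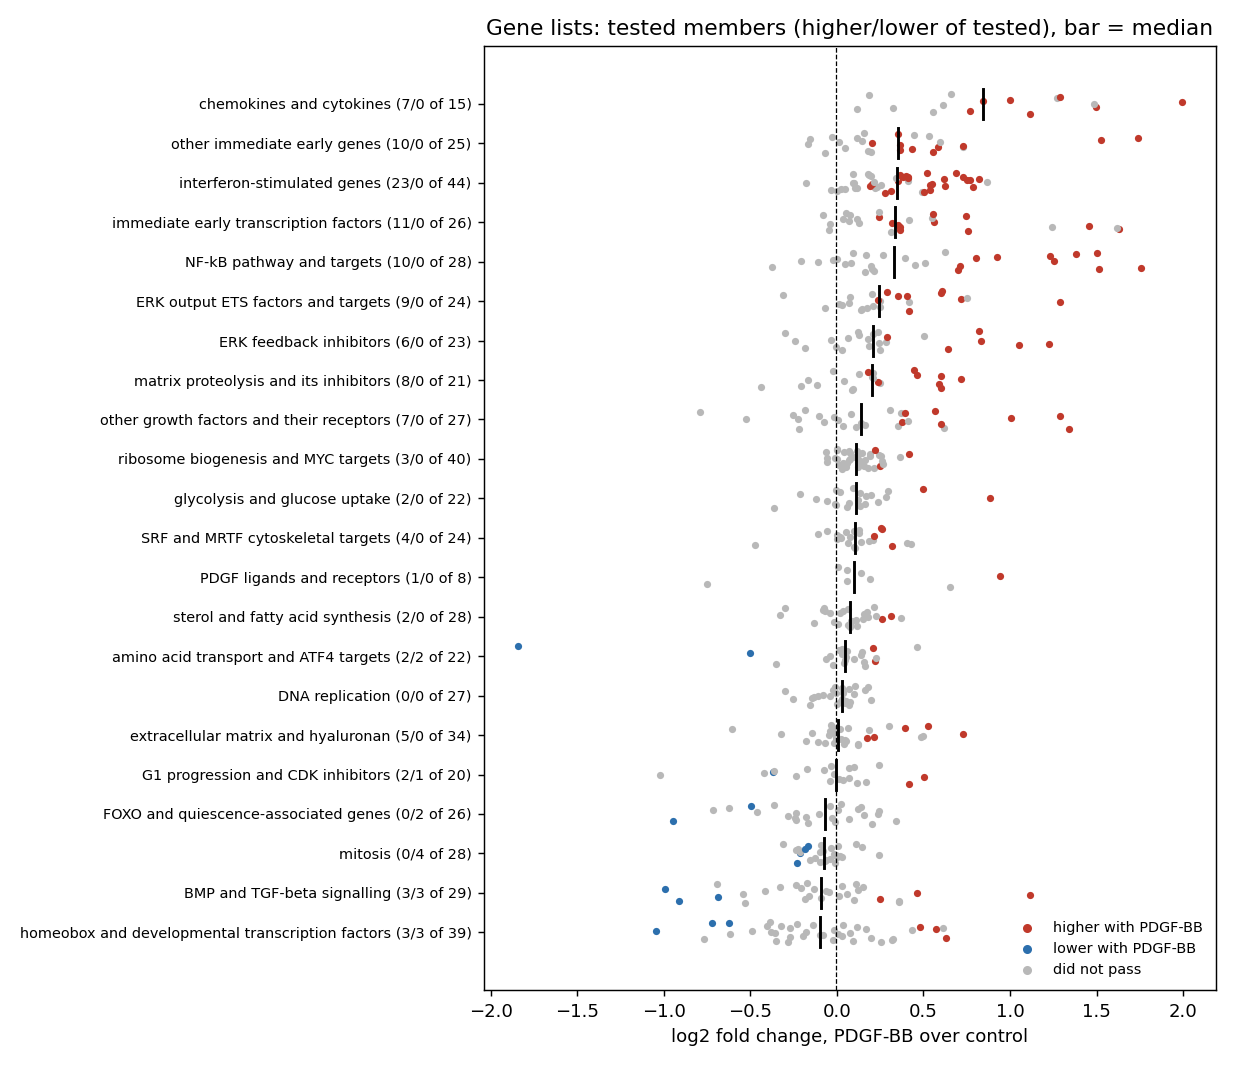
Log2 fold change, PDGF-BB over control, of the tested members of each of 22 gene lists, with the list's median as a bar and the median of all tested genes as a dashed line. Red members rose and blue members fell, and after each list name stand its counts higher and lower of those tested. Chemokines and cytokines have the highest median (0.84), and homeobox and developmental factors the lowest (-0.10).

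Cytoskeletal genes changed little in size. Of 24 tested SRF and MRTF targets 4 rose and 0 fell, with a median of 0.10. ACTG1, cytoplasmic gamma-actin, rose by 0.32 (SE 0.03, adjusted p 6.41e-14), with 4700.0 to 6085 CPM in PDGF-BB libraries and 3771 to 4744 CPM in control libraries. TAGLN, the smooth muscle protein SM22, had 879, 899, 1065, 1389 and 1421 CPM in PDGF-BB replicates 1 to 5 and 742, 722, 929, 1227 and 1289 CPM in control replicates 1 to 5. Each PDGF-BB library exceeded the control library of its number while the groups overlapped widely, so its rise of 0.21 (SE 0.04, adjusted p 8.74e-05) ended without the block (adjusted p 0.749). The focal adhesion genes ZYX and VCL rose by 0.25 and 0.26, and neither passed without the block (adjusted p 0.169 and 0.143), nor VCL without control replicate 4 (0.22, 0.0592). ACTA2, smooth muscle actin, did not pass (log2 fold change 0.11, adjusted p 0.767).

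Genes of cell division moved in both directions at 4 h. Of 20 tested genes of G1 progression and CDK inhibitors, 2 rose (10%) and 1 fell (5%), beside 2.47% and 0.644% of all genes. CCND1, cyclin D1, had 539.7, 515, 479, 472 and 626 CPM in PDGF-BB replicates 1 to 5, against 420.1, 368, 397, 323 and 468 CPM in control replicates 1 to 5. It rose by 0.42 (SE 0.05, adjusted p 4.58e-10), and the groups were apart by a narrow gap. The CDK inhibitor CDKN1A also rose, by 0.51 (SE 0.09, adjusted p 2.61e-05, and 0.0539 without the block), and CDKN2C fell (-0.37, adjusted p 0.0398), a call that ended in 7 of the 10 fits that left out 1 library. Of 27 tested DNA replication genes 0 rose and 0 fell, with a median of 0.03 (edgeR). At shares of 2.47% and 0.644% over all genes, 0 calls do not set these 27 genes apart. At an unadjusted p under 0.05, 1 of these was higher and 2 were lower, and DESeq2 and limma-voom also called 0. Of 28 tested mitosis genes 4 fell (14.3%, beside 0.644% of all genes) and 0 rose. These were TOP2A (-0.16, adjusted p 0.00219), MKI67 (-0.18, 0.00932), CENPF (-0.21, 0.00352) and ASPM (-0.23, 0.00886). Summed over the mitosis list and scaled by total gene counts only, levels were 6804 to 7659 CPM in PDGF-BB libraries and 7682 to 8335 CPM in control libraries. The gap between these ranges is narrow and may depend on the scaling. All 4 calls ended without the block (adjusted p 0.263 to 0.32), and TOP2A was lost without control replicate 4 (-0.13, adjusted p 0.0561), MKI67 without PDGF-BB replicate 5 (-0.16, 0.058) or control replicate 5 (-0.13, 0.166), and ASPM without control replicate 3 (-0.19, 0.0775) or 5 (-0.20, 0.0653). In bulk RNA, fewer cells of a kind and less RNA in each such cell cannot be told apart.

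Genes linked to FOXO factors and quiescence had 2 falls among 26 tested and 0 rises. TXNIP, an inhibitor of thioredoxin and of glucose uptake, had 56.7, 54.0, 62.9, 56.5 and 54.9 CPM in PDGF-BB replicates 1 to 5 and 93.0, 89.8, 77.2, 80.7 and 63.1 CPM in control replicates 1 to 5. The groups met without overlapping, at 62.9 CPM in PDGF-BB replicate 3 and 63.1 CPM in control replicate 5, and the log2 change was -0.50 (SE 0.10, adjusted p 0.000132). CCNG2, an unconventional cyclin of resting cells, fell (-0.95, adjusted p 0.0244), and its call ended in 6 of the 10 fits that left out 1 library.

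In the lists of amino acid transport, sterol synthesis, glycolysis and ribosome biogenesis, 7.14% to 9.09% of tested genes rose, beside 2.47% of all genes. Falls made up 9.09% of the amino acid list, beside 0.644% of all genes, and 0% of the other lists named here. SLC38A2, a transporter of neutral amino acids, had 179, 221, 215, 202 and 179 CPM in PDGF-BB replicates 1 to 5 and 299, 277, 273, 276 and 278 CPM in control replicates 1 to 5. All PDGF-BB libraries lay below all control libraries, and its log2 fold change of -0.50 (SE 0.06, adjusted p 9.63e-11) had the smallest p among the falls. In the same list of 22 tested amino acid transport and ATF4 target genes, VLDLR also fell, MTHFD2 and STC2 rose by 0.22 and 0.21, and these 3 calls each ended in 7 of the 10 fits that left out 1 library. In the sterol synthesis list HMGCS1, an enzyme of the mevalonate pathway, rose by 0.26 (adjusted p 0.0192), and it did not pass without the block (adjusted p 0.505). Glycolysis had 2 rises among 22, the glucose transporter SLC2A3 (0.49, adjusted p 0.00806) and PFKFB4 (0.88, 0.0365), and ribosome biogenesis had 3 among 40, RRP9, WDR43 and DDX21, with log2 fold changes of 0.22 to 0.41. None of these 5 passed without the block (adjusted p 0.0536 to 0.423).

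Signalling of the BMP and TGF-beta family moved in both directions, with 3 rises and 3 falls among 29 tested genes. INHBA, the activin A subunit, rose by 1.11 (SE 0.08, adjusted p 2.08e-24), with 144 to 212 CPM in PDGF-BB libraries and 63.9 to 95.9 CPM in control libraries. GREM1, a BMP antagonist, rose by 0.25 (adjusted p 5.84e-06, and 0.0763 without the block).

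The 3 falls were BMP4, ID2 and SMAD6. BMP4, a BMP ligand, had 6.79, 8.04, 8.64, 11.8 and 10.5 CPM in PDGF-BB replicates 1 to 5, against 15.0, 12.6, 15.8, 22.2 and 21.2 CPM in control replicates 1 to 5, with no overlap (log2 fold change -0.91, SE 0.22, adjusted p 0.00321). ID2, a target of BMP signals that inhibits helix-loop-helix factors, had 22.1, 30.2, 17.5, 15.2 and 19.9 CPM in PDGF-BB replicates 1 to 5 and 36.1, 37.5, 29.2, 35.3 and 28.3 CPM in control replicates 1 to 5. Only PDGF-BB replicate 2 reached into the control range, and the log2 change was -0.69 (SE 0.15, adjusted p 0.000869, and 0.0608 without the block). SMAD6, an inhibitory SMAD, fell (-0.99, SE 0.27, adjusted p 0.0203), and that call ended in 4 of the 10 fits that left out 1 library. The related ID1 (log2 fold change -0.09, adjusted p 0.592) and ID3 (-0.16, 0.12) did not pass.

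Developmental transcription factors likewise had 3 rises and 3 falls among 39 tested. SIX4, a homeobox factor, had 11.2, 10.1, 7.02, 11.2 and 10.5 CPM in PDGF-BB replicates 1 to 5 and 23.6, 18.4, 22.0, 19.0 and 20.1 CPM in control replicates 1 to 5. The groups were well apart, and SIX4 fell (-1.04, SE 0.20, adjusted p 0.000109). The zinc finger factor ZIC2 averaged 33.1 ± 3.90 CPM in PDGF-BB cells and 50.8 ± 2.73 CPM in control cells (-0.62, SE 0.12, adjusted p 0.000107). ZIC4, its relative, fell too (-0.72, adjusted p 0.0275), with the call lost in 6 of the 10 fits that left out 1 library. On the other side SOX9 rose by 0.57 (adjusted p 1.36e-05), TBX3 by 0.48 (1.46e-06, and 0.0719 without the block) and HES4 by 0.63 (0.0183). The HES4 call was lost in 6 of the 10 fits that left out 1 library and without the block (adjusted p 0.231). The zinc finger genes whose symbols begin with ZNF had 1 rise and 0 falls among 395 tested, with a median of -0.02.

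Matrix genes gave rises in both lists that were examined. Of 21 tested proteolysis genes 8 rose and 0 fell, with a median of 0.20, and of 34 tested matrix genes 5 rose and 0 fell, with a median of 0.01, and 6 of the 8 and 3 of the 5 calls held in all 10 fits that left out 1 library. PLAUR, the urokinase receptor, rose by 0.60 (SE 0.05, adjusted p 1.85e-19), with 566 to 664 CPM in PDGF-BB libraries and 349.9 to 439 CPM in control libraries. The protease gene ADAMTS1 rose by 0.60 (1.05e-12) and TIMP3, a metalloproteinase inhibitor, by 0.44 (8.92e-15). HAS2, a hyaluronan synthase, rose by 0.73 (SE 0.12, adjusted p 3.41e-06), the adhesion modulator TNC by 0.52 (9.25e-08) and THBS1, thrombospondin 1, by 0.39 (1.41e-09). The fibrillar collagen genes COL1A1 (log2 fold change -0.07, adjusted p 0.36) and COL1A2 (-0.11, 0.16) did not pass.

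Other genes outside the lists are named here as a choice among those with small p, made after their values were seen. Some genes with a smaller p than some of those named are left out. AKAP12, a scaffold for protein kinase A, averaged 1378 ± 152 CPM in PDGF-BB cells and 891 ± 166 CPM in control cells and rose by 0.64 (SE 0.04, adjusted p 1.11e-26). STC1, the hormone stanniocalcin, rose by 0.90 (SE 0.07, 7.45e-23), MAP2K3, a kinase upstream of p38, by 0.69 (1.56e-21), the heparan sulfate proteoglycan SDC4 by 0.63 (2.72e-18), tissue factor F3 by 0.64 (9.08e-15) and RGS4, which limits G protein signals, by 0.62 (1.14e-13). FST, the activin antagonist follistatin, rose by 0.72 (2.84e-09). All 7 calls held in every fit that left out 1 library and without the block. NFATC1, a calcium-regulated transcription factor, and TAGLN3 were among the 12 largest rises by rule, at 1.99 (SE 0.41, adjusted p 0.000393) and 1.57 (SE 0.28, 2.07e-05). NFATC1 had 4.32 to 11.8 CPM in PDGF-BB libraries and 0 to 3.21 CPM in control libraries. AC124319.1, C15orf48 and BCL2A1 were also among these 12, with means under 5 CPM in both groups, and they missed the threshold in 6, 2 and 7 of the fits without 1 library. For C15orf48 these were the fits without PDGF-BB replicate 2 (1.39, adjusted p 0.218) or control replicate 1 (1.65, 0.0588).

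Among falls outside the lists, also chosen after their values were seen, FZD2, a Wnt receptor, fell (-0.50, SE 0.08, adjusted p 4.61e-07), as did the Groucho-type corepressor TLE4 (-0.35, 1.01e-05) and TCF7L2, a partner of beta-catenin (-0.59, 7.96e-05). The helix-loop-helix gene TCF4 fell (-0.38, 8.96e-05), with 111 to 129 CPM in PDGF-BB libraries and 155 to 164 CPM in control libraries. JMY, a nucleator of actin, fell (-0.98, SE 0.18, adjusted p 2.22e-05), with 6.51 to 18.9 CPM in PDGF-BB libraries and 20.8 to 28.9 CPM in control libraries.

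The largest falls by fold were in genes near the limit of counting. LARGE2, a glycosyltransferase gene, had 0, 0.861, 1.35, 0 and 0.620 CPM in PDGF-BB replicates 1 to 5 and 1.53, 2.91, 4.92, 1.87 and 4.44 CPM in control replicates 1 to 5. Its fitted log2 fold change of -2.35 (adjusted p 0.0115) was lost without PDGF-BB replicate 4 (adjusted p 0.0873) or control replicate 3 (0.0632). FRS3, an adaptor of growth factor receptors (-2.16), was lost without PDGF-BB replicate 4 (-1.92, adjusted p 0.0537), and YPEL2 (-1.80) without PDGF-BB replicate 5 (-1.56, 0.0643) or control replicate 4 (-1.55, 0.0719). The calls of VLDLR (-1.84), FRAT1 (-1.76), HEXIM2 (-1.31), PDE5A (-1.02) and SPEF2 (-1.001) ended in 6 or 7 of the 10 fits that left out 1 library. Of the 12 falls named for their size, SIX4, JMY and BMP4 were the 3 that held in all 10 of these fits.

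Long genes made up a large share of the falls. The 78 had a median exon length of 7884 bases, the 299 rises 5051 and all tested genes 5109. In the longest of 5 equal length classes, from 8409 bases, 35 genes fell, 44.9% of the 78, while 61 rose, 20.4% of the 299. This class holds 20.0% of all tested genes. The mean log2 CPM of the longest minus the shortest class, relative to the mean of the libraries, was -0.0260 ± 0.0286 in PDGF-BB libraries and 0.0377 ± 0.0326 in control libraries (SD, n = 5 each, exact permutation test, two-sided, p = 0.0238, adjusted p 0.167 over 7 measures). With this trend removed, 311 genes rose and 66 fell, 284 and 58 of them shared with the main counts. MKI67 then missed the threshold (-0.14, adjusted p 0.0986), as did PDE5A (adjusted p 0.0597), while TOP2A, CENPF and ASPM passed.

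**Figure D4:**
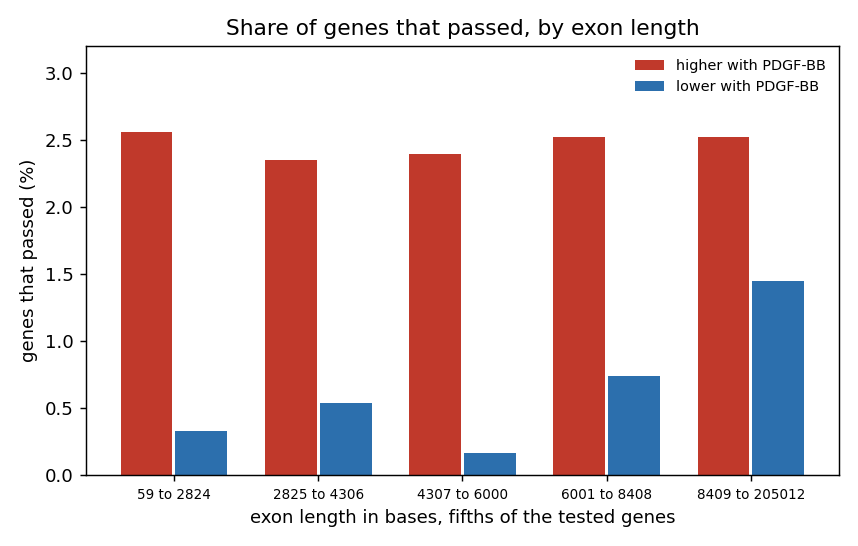
Share of tested genes that rose or fell, in percent, by 5 classes of exon length in bases. The share that fell is highest in the longest class, with 35 of 2422 genes, and the share that rose is similar in all 5, with 57 to 62 genes.

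The label of the cells was checked against markers of several cell types. Of 17 pericyte and mural markers 11 were tested, and PDGFRB, CSPG4, ANPEP and ACTA2 averaged 134, 69.0, 60.8 and 58.2 CPM in PDGF-BB cells and 133, 53.5, 62.7 and 55.0 CPM in control cells. Levels of the other tested markers are not given singly, and the list sum below covers all 17. The markers named make up most of that sum, so their levels are not typical of the list. Log2 fold changes of the 11 ran from -0.37 to 0.73, with 5 above 0 and 6 below. HIGD1B, COX4I2 and VTN were at 0 counts in all 10 libraries. CSPG4, the proteoglycan NG2, was the 1 that rose (0.37, adjusted p 0.0264), a call that ended in 6 of the 10 fits that left out 1 library. The summed level of the list was 405 to 455 CPM in PDGF-BB libraries and 403 to 463 CPM in control libraries. This sum and those of the other marker lists are scaled by total gene counts only. Endothelial markers summed to 35.1 to 50.4 CPM in PDGF-BB libraries and 26.3 to 42.1 CPM in control libraries. Leukocyte markers summed to 40.1 to 47.5 CPM in PDGF-BB libraries and 39.1 to 46.7 CPM in control libraries. Fibroblast markers summed to 4314 to 5391 CPM in PDGF-BB libraries and 4602 to 5639 CPM in control libraries, well above the pericyte and mural sum. Epithelial markers summed to 177 to 240 CPM in PDGF-BB libraries and 162 to 200.4 CPM in control libraries. Neural markers summed to 31.2 to 45.9 CPM in PDGF-BB libraries and 33.7 to 57.4 CPM in control libraries. In edgeR 0 of the 4 endothelial, 4 leukocyte, 9 fibroblast and 2 neural markers tested passed, while 1 endothelial marker was higher and 2 fibroblast markers were lower at an unadjusted p under 0.05, and DESeq2 called 1 fibroblast marker lower. LYZ, TYROBP, AIF1, CDH1, ESRP1, GRHL2, S100B, NCAM1 and ELAVL4 were at 0 counts in all 10 libraries. Of 3 tested epithelial markers KRT18 rose (0.24, adjusted p 0.0235), and its call ended in 5 of the 10 fits that left out 1 library.

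The same factor was compared between the 10 libraries that lie outside the main contrast. Both contrasts came from the same fit of all 20 libraries. They therefore share its gene filter, replicate block and estimate of the spread, and their calls are not fully independent. Between cells given eNAMPT with PDGF-BB and cells given eNAMPT alone, 359 genes rose (2.96%) and 152 fell (1.26%). Of the 299 rises, 292 had a log2 fold change above 0 there (97.7%, beside 49.5% of all genes), with a median of 0.39, and 191 passed as rises, which is 63.9% of the 299 and 53.2% of the 359. Of the 78 falls, 68 were below 0 there (87.2%, beside 50.5% of all genes), with a median of -0.27, and 29 passed as falls, which is 37.2% of the 78 and 19.1% of the 152. EGR1 rose by 1.44 in those libraries, PDGFA by 1.10, DUSP6 by 1.75 and HBEGF by 1.26. Among the falls SLC38A2 had -0.52 (adjusted p 1.28e-11), ID2 -1.11 (3.7e-09) and ZIC2 -0.59 (0.000251), all past the threshold. SIX4 had -0.44 and did not pass (adjusted p 0.27), but the difference between its effects was not among those that passed either. FRS3 had 0.27 there (adjusted p 0.856). Of the 23 interferon-stimulated genes that rose, 22 were above 0 and 14 passed. ERCC scaling moved the median of all genes to -0.16 in this second comparison, and 34 rises and 28 falls passed under it. Without eNAMPT replicate 3 the falls numbered 93.

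**Figure D5:**
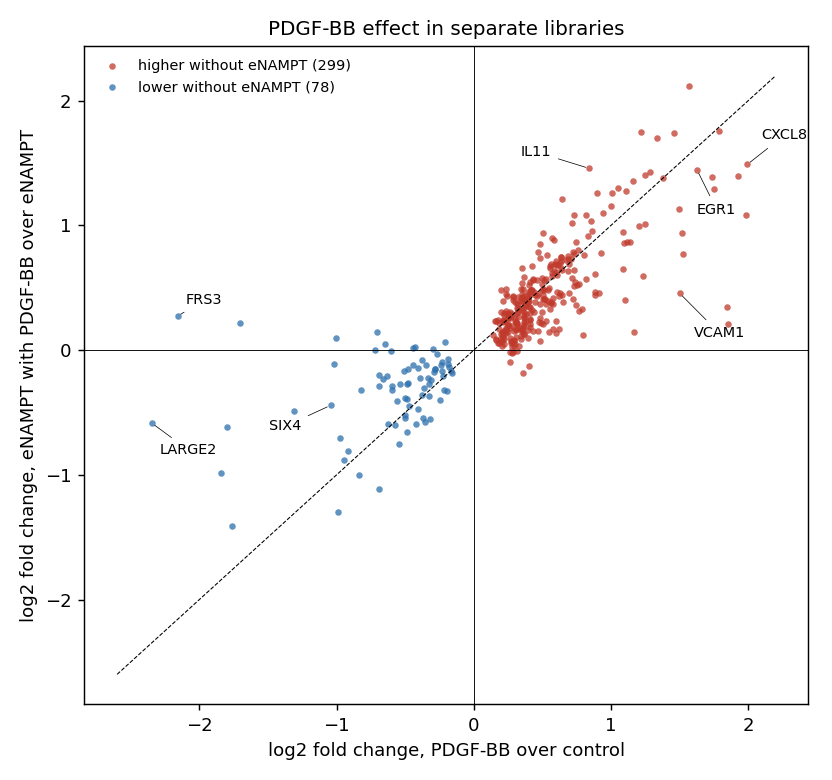
Log2 fold change with PDGF-BB in the absence of eNAMPT, on the x axis, and in its presence, on the y axis, for the 299 genes that rose (red) and the 78 that fell (blue) without eNAMPT. The dashed line marks equal effects, 292 of the red points lie above 0, and 68 of the blue points lie below it.

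The effect differed with eNAMPT for 7 genes (0.0578% of those tested, edgeR test of the difference). The 3 that also rose with PDGF-BB alone were IL11, CXCL8 and VCAM1. IL11 rose by 1.46 with eNAMPT and by 0.84 without it, a difference of 0.62 (SE 0.11, adjusted p 0.000968). VCAM1 rose by 0.46 with eNAMPT and by 1.50 without it, a difference of -1.05 (SE 0.20, adjusted p 0.002). CXCL8 rose by 1.49 with eNAMPT and by 1.99 without it, a difference of -0.50 (SE 0.12, adjusted p 0.0451). Mean CPM in control, PDGF-BB, eNAMPT and combined cells was 42.5, 169, 139 and 385 for CXCL8. For VCAM1 it was 14.6, 41.2, 42.4 and 57.8, and for IL11 131, 232, 91.3 and 254. With eNAMPT, CXCL8 and VCAM1 rose by less on the log2 scale from a higher starting level, and combined cells had the highest mean. The VCAM1 difference passed in all 20 fits that left out 1 library, the IL11 difference was lost without control replicate 3 (adjusted p 0.0594), and the CXCL8 difference was lost in 12 of the 20. Without the block 0 genes differed (406 at an unadjusted p under 0.05), with ERCC scaling 0 (372) and in DESeq2 1 (612), against 662 in the main model.

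NAMPT itself, which encodes the enzyme whose secreted form was the other treatment, had 72.6, 80.4, 93.9, 89.1 and 76.9 CPM in PDGF-BB replicates 1 to 5 and 74.96, 65.9, 58.4, 62.8 and 60.4 CPM in control replicates 1 to 5. Control replicate 1 reached into the PDGF-BB range, and the log2 change was 0.36 (SE 0.10, adjusted p 0.0125, and 0.0608 without the block). The call ended without PDGF-BB replicate 3 (0.28, adjusted p 0.146) or 4 (0.33, 0.075), or control replicate 3 (0.32, 0.073) or 4 (0.34, 0.0569).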

How the data were processed

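RNA was sequenced from 20 libraries of 1 human pericyte line, 5 for each of 4 treatments. The authors deposited raw gene counts, and their processing notes name STAR 2.6.1a, featureCounts 1.6.4, DESeq2 1.18.1 and GRCh38, with roles and settings not given in the sources used here. Reads shared by close paralogs such as CXCL1 and CXCL3 may therefore be split in ways that are unknown. The authors' deposited table also holds a log2 fold change and p-value of control over PDGF-BB, in which 139 genes were higher and 23 lower with PDGF-BB at an adjusted p under 0.05, all of them also called here. That log2 fold change is negative where PDGF-BB is higher.

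Spike-in rows were removed, and the counts of all 20 libraries were fitted with edgeR 4.0.16 in R 4.3.3 (quasi-likelihood, TMM scaling, filterByExpr, group plus replicate number as a block), with PDGF-BB over control as the main contrast. The pooled spread comes from all 4 groups. P-values were adjusted over all 12111 tested genes. CPM values are scaled by TMM, except the sums over a gene list, which are scaled by total gene counts only. DESeq2 1.42.0 and limma-voom (limma 3.58.1) were alternatives, as were other scalings, filters, a second deposited count table whose difference from the main table is not stated, and fits without 1 library. The edgeR script was tested on simulated counts. Promoter sequences and starts are from RefSeq (GRCh38.p14), and gene coordinates are from GENCODE 29, to which all 58676 gene IDs matched.

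The genes named are the 12 largest rises and falls among passing genes that averaged a log2 CPM of 1 or more and had the same direction in all 5 pairs, up to 4 passing members of each of 29 lists by smallest p, and 16 genes fixed by name. Other genes and list members named in the text were chosen after their values were seen. The comparison, the lists and this rule were chosen with earlier results of these data known. Some genes are not reported here.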

Additional observations from a re-analysis of the deposited data

Results flagged for a closer look

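Of 210 groups of 5 libraries checked for a value that stood apart (Dixon's test, critical value 0.71), 14 were marked, and chance marks about 1 in 20 groups. In PDGF-BB libraries, MYC in replicate 4 had 48.1 CPM while the others had 33.4 to 36.8, PDE5A in replicate 1 had 8.86 while the others had 3.41 to 4.32, and SIX4 in replicate 3 had 7.02 while the others had 10.1 to 11.2. In control libraries, EGR1 in replicate 1 had 56.9 CPM while the others had 67.0 to 70.7, SLC38A2 in replicate 1 had 299 while the others had 273 to 278, and C15orf48 in replicate 2 had 2.58 while the others had 0.612 to 1.07. TNFAIP2 in control replicate 2 had 72.7 CPM while the others had 38.6 to 43.3, and CENPF there had 574 while the others had 532 to 536. In control replicate 4 TOP2A had 2559 CPM while the others had 2063 to 2115, and BCL2A1 had 0 while the others had 1.31 to 1.61. In control replicate 5 CCL2 had 226 CPM while the others had 145 to 161, and FGF2 had 211 while the others had 132 to 151. PDGF-BB replicate 5 had 16430 genes detected while the others had 17004 to 17127, and 1.90% of its counts were ERCC spike-ins while the others had 1.03% to 1.27%.

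In 7 genes the PDGF-BB effect with eNAMPT differed from that without it (edgeR test of the difference, adjusted over all tested genes). IL11 differed by 0.62 (adjusted p 0.000968), VCAM1 by -1.05 (0.002) and CXCL8 by -0.50 (0.0451). FAM53C had a log2 fold change of -0.36 with eNAMPT and 0.23 without it, a difference of -0.59 (adjusted p 0.0449). The small nucleolar RNA gene SNORD13 had -0.52 with eNAMPT and 0.11 without it, a difference of -0.63 (0.00015). SCARNA22, a small Cajal body RNA gene, had -0.31 with eNAMPT and 0.25 without it, a difference of -0.56 (0.0111). RNU4ATAC, a small nuclear RNA gene of the minor spliceosome, had -0.30 with eNAMPT and 0.01 without it, a difference of -0.31 (0.0449). The differences of FAM53C, SCARNA22 and RNU4ATAC were lost in 13, 5 and 14 of the 20 fits that left out 1 library, and that of SNORD13 was lost in 0 of them.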

How the results depend on the processing

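Without the replicate block 127 genes rose and 20 fell in the fit of 20 libraries, and 117 and 17 in that of 10. Deviations of libraries of the same number correlated at 0.0807, 0.0845, 0.00138, 0.120 and 0.130 for numbers 1 to 5, not all above 0.1, so pairing is not shown, and only numbers 4 and 5 correlated best with their own number. Over the 5639 genes whose log2 CPM averaged 5 or more the same correlations were 0.216, 0.228, 0.0222, 0.344 and 0.347, of which that of number 3 was again under 0.1. ERCC scaling left 64 rises and 6 falls, and an adjusted p under 0.01 left 190 and 31. Testing every gene with any count left 50 falls. Leaving out 1 library gave 204 to 265 rises and 47 to 63 falls. DESeq2, limma-voom, RLE size factors, the stricter filter, the second count table, the fit of the 10 libraries with the block, and removal of the length trend, which was chosen after seeing the data, stayed within 1.5 times of the main counts. Effects on eNAMPT gave 143 rises and 42 falls without the block, 34 and 28 with ERCC scaling, 226 and 66 at 0.01, and 260 to 326 and 93 to 127 without 1 library. The difference of effects passed for 0 genes without the block, 1 in DESeq2, 0 with ERCC scaling, where the median over all genes was -0.17, 3 at 0.01, and 3 to 11 without 1 library, a check added after seeing the data. The cause of these changes was not tested. No named gene changed sign under any setting while it passed. With 2963873 to 3759592 gene counts in the 10 libraries, genes of few CPM rest on few reads.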
